A study of Homo sapiens with 12 samples.

Results

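The nuclear genes that encode the subunits of the mitochondrial respiratory chain and of the ATP synthase were examined in A375, an established human melanoma cell line. Members were taken by symbol from the raw count table. They were the genes whose current symbols start with NDUFA, NDUFB, NDUFC, NDUFS, NDUFV, UQCR, COX4I, COX5, COX6, COX7, COX8 or ATP5, together with *SDHA*, *SDHB*, *SDHC*, *SDHD* and *CYC1*. Of 102 matching symbols, 9 NDUFAF genes (assembly factors and a pseudogene), 2 other pseudogenes and 2 non-coding RNAs were set aside. This left 89 of the 23705 genes in the table, with 38 genes in complex I, 4 in complex II, 10 in complex III, 17 in complex IV and 20 in complex V. Cells were kept for 24 h in DMSO alone (vehicle), in rosiglitazone (RGZ) at 5 μM, in T0070907 at 2 μM, or in both drugs at these doses (the combination). RGZ activates PPARγ, a nuclear receptor that controls lipid genes, and T0070907 blocks it. Each of the 4 conditions was sequenced as 3 libraries, numbered by independent experiments 1, 2 and 3, and RNA from technical replicates had been pooled within an experiment. All 12 libraries came from the same cell line, so the values describe a single line in culture.

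The respiratory chain sits in the inner mitochondrial membrane. Complex I (NADH dehydrogenase) and complex II (succinate dehydrogenase) pass electrons to coenzyme Q, complex III passes them to cytochrome c, and complex IV (cytochrome c oxidase) passes them to oxygen. Complexes I, III and IV pump protons, and complex V, the ATP synthase, uses the proton gradient to make ATP. Most subunits are encoded in the nucleus, and a small set, including the central subunits of complex I and of cytochrome c oxidase, is encoded in the mitochondrial genome. The count table held 0 mitochondrially encoded genes, so the values below cover the nuclear set only. Complex II has no mitochondrially encoded subunit and its flavoprotein *SDHA* is also an enzyme of the citric acid cycle.

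The libraries held between 8319455 and 11375227 counts. The known PPAR targets *ANGPTL4*, *PDK4* and *CPT1A* marked the treatments. *ANGPTL4* had a level of 5.67 ± 2.5 CPM (counts scaled by TMM to a common library size; SD, n = 3) under vehicle, 428 ± 38 under RGZ, 0.628 ± 0.3 under T0070907 and 19.4 ± 19 under the combination. All 3 genes were called higher under RGZ than under vehicle and lower under the combination than under RGZ, and the first call of *CPT1A* (log2 change 0.78) was lost without the vehicle library of experiment 1 (adjusted p = 0.0523). The call of *PDK4* against RGZ was lost when only the groups compared were fitted (adjusted p = 0.0668). With an experiment term in the fit, *PDK4* (-1.79) and *CPT1A* (-0.78) were also called lower under T0070907 than under vehicle, and all 3 genes were called higher for the combination against T0070907. Of 9 melanocyte lineage markers, 5 passed the filter on low counts. *SOX10*, a transcription factor of the melanocyte lineage, had 311 ± 109 CPM in the vehicle libraries (SD, n = 3) and *MITF*, the lineage's master regulator, had 45.9 ± 12.2. Among the markers of the pigmented state, *TYR*, the pigment enzyme tyrosinase, had 0 counts and *MLANA* had 0.227 ± 0.393 CPM under vehicle. The levels of *PMEL*, *DCT* and *TYRP1*, also on the list, are not given here. The libraries of an experiment deviated together, so each comparison was fitted first on the conditions alone and then with a term for the experiment. The latter fit is called the replicate block, and calls that depend on it are marked as such.

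In vehicle-treated cells the subunit genes were among the more abundant mRNAs. Levels between genes are compared here as CPM per kb, by the length of the shortest principal transcript. The 82 members that passed the filter had a median level of 120.7 CPM per kb, against 9.33 for all tested genes with a known length, and 76 of the 82 were above that median. The filter removed genes with low counts in all conditions. The 7 members it removed had counts near 0 throughout. *COX4I2*, *COX6A2* and *COX8C*, tissue-restricted isoforms of complex IV subunits, and the read-through genes *ATP5MF-PTCD1* and *NDUFC2-KCTD14* had 0 counts in all 12 libraries, where a count of 0 allows up to 3 counts per library. *COX7A1*, the isoform known from heart and skeletal muscle, had 0 to 5 counts per library, and *ATP5MGL*, a gene similar to the ATP synthase subunit *ATP5MG*, had 0 to 3.

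With this length the median level was 196 CPM per kb for complex V, 163 for complex IV, 104 for complex I, 69.2 for complex III and 58.5 for complex II. The order depended on the transcript chosen. By the longest annotated transcript, an alternative chosen after the data were seen, the medians were 68.3, 119, 65.2, 69.2 and 52.6 CPM per kb in the same order, so that complex V was no longer highest. *ATP5F1B*, the catalytic β subunit of the ATP synthase, was the most abundant member at 821 ± 32.9 CPM per kb (SD, n = 3). *COX4I1*, the ubiquitous form of the largest nuclear subunit of complex IV, had 538 ± 53.9, and *UQCRQ*, a small subunit of complex III, had 461 ± 51.8. *COX8A*, the ubiquitous form of the smallest complex IV subunit, at 534 ± 51.4 CPM per kb, differed from *COX4I1* by less than their spread. By the longest transcript *COX8A* stayed at 534 CPM per kb while *COX4I1* had 96.6 and *UQCRQ* had 226. The highest member of complex I was *NDUFB9*, an accessory subunit, at 359.9 ± 27.8 CPM per kb, but by the longest transcript it had 91.6 and *NDUFS5*, at 309, was highest. The highest of complex II by either length was *SDHB*, the iron-sulfur subunit, at 199.8 ± 8.62. The lowest tested members were *NDUFV3* in complex I (6.61 ± 0.34 CPM per kb), *SDHC*, a membrane anchor of complex II (9.04 ± 0.41), *UQCRHL* in complex III (3.37 ± 0.59), *COX6B2* in complex IV (0.52 ± 0.54) and *ATP5F1E* in complex V (3.33 ± 0.86; SD, n = 3 each). The length divides these values, and *NDUFV3*, *SDHC* and *ATP5F1E* are among 9 tested members whose chosen transcript is over 3000 nt. The small ε subunit *ATP5F1E* has a near-identical copy, *ATP5F1EP2*, in the table, and *UQCRHL* is a near-identical copy of *UQCRH*. The counts of these genes are uncertain, since the division of reads between copies is not stated.

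**Figure D1:**
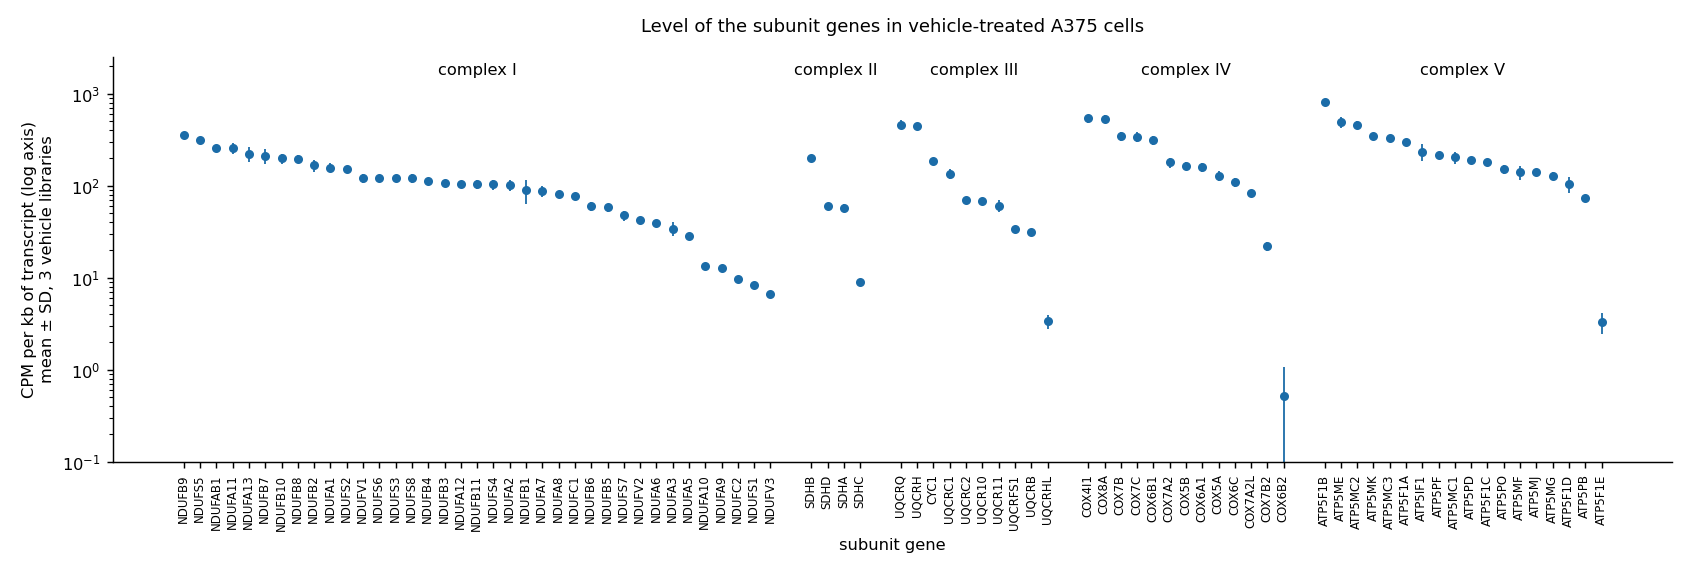
Level of the 82 tested subunit genes in vehicle-treated A375 cells, in CPM per kb of transcript on a log axis, ordered within each complex. Points are means and bars are SDs of 3 libraries, and levels run from 0.52 for *COX6B2* to 821 for *ATP5F1B*.

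Where a subunit has several genes, the ubiquitous isoform dominated. *COX6A1* had 159.8 ± 18.6 CPM per kb and *COX6A2* had 0 counts. *COX6B1* had 312 ± 31.3 against 0.52 ± 0.54 for *COX6B2*, the form known from testis, and *COX7B* had 349 ± 38.5 against 22.2 ± 2.56 for *COX7B2*. By the longest transcript *COX7B* had 62.9 and *COX7B2* 19.5. The pair *COX7A2* and *COX7A2L* stood at 179 ± 22.2 and 83.6 ± 3.55 CPM per kb, or 152 and 30.4 by the longest transcript, the latter being known as a factor that joins complexes III and IV. The c-ring of the ATP synthase, which rotates as protons pass, is encoded by 3 genes that give the same mature protein. Among them *ATP5MC2* had 462 ± 44.2, *ATP5MC3* 330.0 ± 19.2 and *ATP5MC1* 203 ± 29.1 CPM per kb (SD, n = 3 for each value). By the longest transcript these were 174, 50.7 and 54.9, which turns the order of *ATP5MC3* and *ATP5MC1*. *ATP5IF1*, which inhibits ATP hydrolysis by the synthase and is not a subunit, had 233 ± 47.7, or 62.1 by the longest transcript. *NDUFA4* carries the current symbol *COXFA4*, which the rule on symbols does not take, and had 83.6 ± 6 CPM under vehicle and 91.9 ± 8.5 under the combination.

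Together the 89 genes took between 1.17% and 1.45% of the counts of a library. In experiments 1, 2 and 3 the share was 1.17%, 1.36% and 1.24% under vehicle, and 1.21%, 1.37% and 1.29% under RGZ. It was 1.19%, 1.29% and 1.33% under T0070907, and 1.45%, 1.35% and 1.40% under the combination. The library of the combination was thus the highest of its experiment in experiments 1 and 3, and was below vehicle and RGZ in experiment 2. The mean shares were 1.26 ± 0.098% for vehicle, 1.29 ± 0.080% for RGZ, 1.27 ± 0.070% for T0070907 and 1.40 ± 0.050% for the combination (SD, n = 3). In bulk RNA, a change in the number of cells of a type and a change in RNA per cell cannot be told apart. The mean share of counts in all other genes with transcripts under 1000 nt was also above vehicle for RGZ and the combination, while for T0070907 it was below. It was 7.98 ± 0.60% under vehicle, 8.42 ± 0.50% under RGZ, 7.93 ± 0.50% under T0070907 and 9.06 ± 0.54% under the combination (SD, n = 3). The subunit genes are themselves short, with a median transcript length of 880 nt against 2960 nt for all tested genes, and 47 of the 82 are under 1000 nt, against 6.53% of all tested genes.

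**Figure D2:**
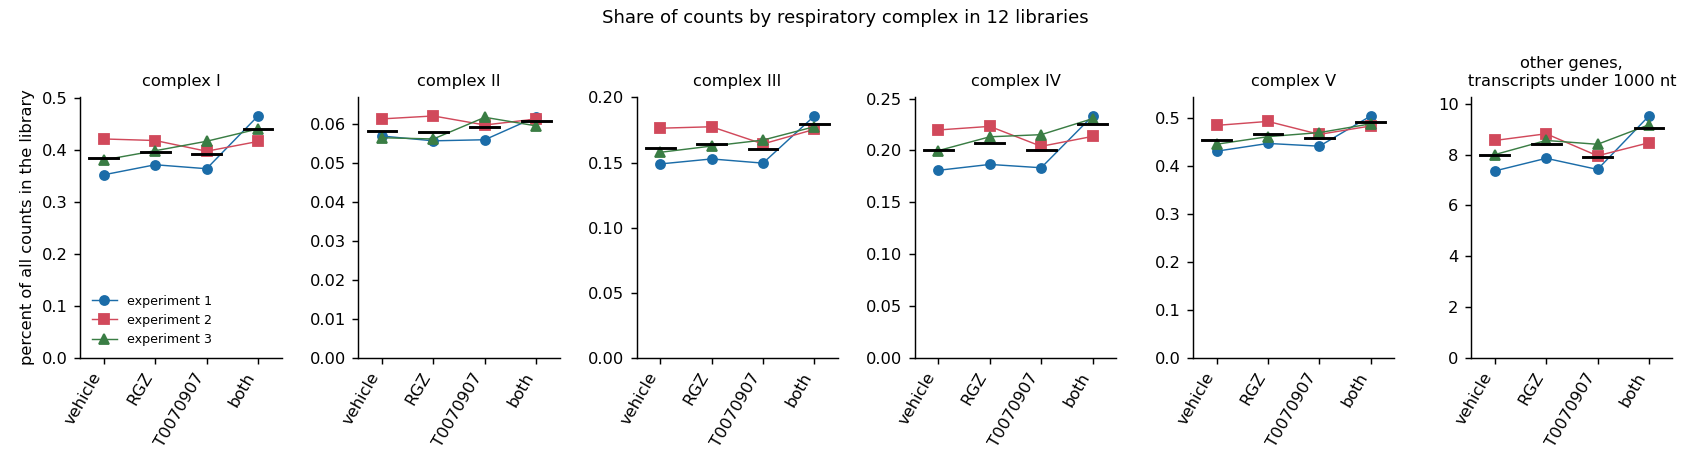
Percent of each library's counts taken by each complex, and by all other genes with transcripts under 1000 nt, in the 4 conditions. Points joined by a line are the libraries of an experiment and black bars are means of 3 libraries, and in experiment 1 the step to the combination is visible in every panel.

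RGZ was compared with vehicle to see whether the agonist alone moved the chain. None of the 82 tested subunit genes was called, 0 of 82 at an adjusted p-value under 0.05 (quasi-likelihood test of edgeR, Benjamini-Hochberg adjusted over all tested genes; SE below is the standard error), against 1.24% of all tested genes. At an unadjusted p-value under 0.05 there was 1 member, higher (5.51% of all tested genes), and DESeq2 and limma-voom also called 0 with 1 member at that unadjusted level. The median log2 fold change of the members was 0.09, against -0.01 for all tested genes, and 76 of 82 were above 0. The member of smallest p-value was *ATP5MC3*, a c-ring gene, with 267, 297 and 269.8 CPM in the vehicle libraries of experiments 1, 2 and 3 and 309, 331 and 316 CPM under RGZ. The groups did not overlap, yet the log2 change of 0.20 (SE 0.07) had an adjusted p of 0.331, and of 0.0782 with the replicate block. With the block 0 of the 82 members were called, against 9.3% of all tested genes. The count was 3 when the vehicle library of experiment 2 was left out (7.97% of all tested genes), and 0 when any of the other RGZ or vehicle libraries was. *NDUFB9*, *UQCRFS1*, *ATP5F1C* and *ATP5PF* also had every RGZ library above every vehicle library, which makes 5 of 82 members (6.1% of them) against 9.2% of all tested genes. By complex the median log2 fold change was 0.08 for complex I, 0.03 for complex II, 0.12 for complexes III and IV and 0.11 for complex V.

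T0070907 alone left the members centred on 0. With the antagonist, 0 of 82 were called without the block (0.0074% of all tested genes) and 0 with it (0.91%). Of the members 0 were higher at an unadjusted p under 0.05 (1.35% of all tested genes), and 0 had an unadjusted p-value under 0.05 in edgeR without the block, DESeq2 or limma-voom. The median log2 fold change was -0.00, and 40 of 82 members were above 0. Within experiments the median difference was 0.04, -0.13 and 0.09, so that the direction differed between experiments. *NDUFV3*, an accessory subunit of complex I, was the only member whose groups did not overlap, where 4.07% of all tested genes lay lower in this way. It had 29.3, 30.9 and 32.5 CPM under vehicle and 28.5, 28.2 and 28.4 under T0070907, a log2 change of -0.12 (SE 0.09) and an adjusted p of 1.00 in edgeR.

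For the combination against vehicle, 0 members were called without or with the block. Of the 82 fitted log2 fold changes 81 were above 0, with a median log2 fold change of 0.21 against -0.00 for all tested genes. Without the block 38 members had an unadjusted p-value under 0.05, all higher (5.46% of all tested genes were higher at that level), and 0 were called at an adjusted p under 0.05, as were 0% of all tested genes. The lowest adjusted p of a member was 0.453. With the block 54 members had an unadjusted p under 0.05 (10.8% of all tested genes were higher) and 0 were called, again against 0% of all tested genes. DESeq2 gave 41 members at an unadjusted p under 0.05 and limma-voom 38, and both called 0. *NDUFA11*, an accessory subunit of complex I, had 119, 157 and 138 CPM under vehicle and 199.7, 154 and 177 under the combination. The combination library of experiment 2 lay below the vehicle library of that experiment, and its log2 change came to 0.36 (SE 0.11, adjusted p = 0.453, edgeR). The difference was not the same in each experiment. The median over the members was 0.43 in experiment 1, -0.03 in experiment 2 and 0.23 in experiment 3. All other genes with transcripts under 1000 nt, 822 in number, had medians of 0.37, -0.02 and 0.21. With the block, 60 members were called when the combination library of experiment 2 was left out, beside 19% of all tested genes, and 35 when the vehicle library of experiment 2 was left out, beside 6.38%.

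**Figure D3:**
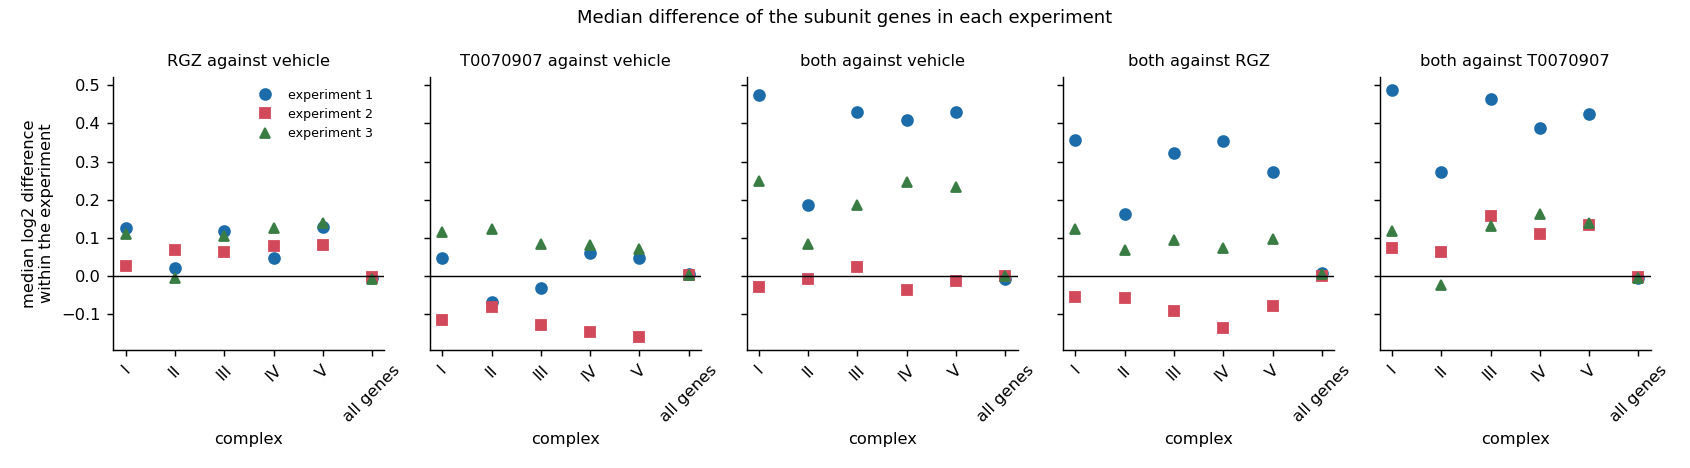
Median log2 difference of the tested subunit genes of each complex within each experiment, for 5 comparisons, beside the median of all tested genes. Experiment 1 is highest for all 5 complexes in the 3 comparisons of the combination, while experiment 2 lies below 0 for all 5 against RGZ.

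Against RGZ alone, 2 subunit genes of complex I were called, a smaller share than of all tested genes, and only with the replicate block. Without it 0 of 82 were called (1.24% of all tested genes), with 6 members higher at an unadjusted p under 0.05 (6.37% of all tested genes) in edgeR, and 6 each in DESeq2 and limma-voom. With it 2 of 82 were called, both higher under the combination, against 11.4% of all tested genes and 5.55% called higher. *NDUFA11* had 134, 144 and 142 CPM under RGZ and 199.7, 154 and 177 under the combination in experiments 1 to 3. Every combination library was above every RGZ library. Its log2 change came to 0.33 (SE 0.09), with an adjusted p of 0.0272 with the block and 0.217 without it (edgeR). *NDUFS8*, a core subunit that carries iron-sulfur clusters, had 97.2, 109.9 and 93.7 CPM under RGZ and 151, 117 and 108 under the combination. The groups overlapped, and the log2 change of 0.32 (SE 0.10) had an adjusted p of 0.0428 with the block and 0.306 without it (edgeR). For both genes the difference was largest in experiment 1. With the block, the count of called members was 37 without the combination library of experiment 2 (18.9% of all tested genes), 1 without that of experiment 3 (8.18%), and 0 without that of experiment 1 or without any of the RGZ libraries. The members' median log2 fold change was 0.12, against 0.01 for all tested genes. Within experiments it was 0.34, -0.08 and 0.10.

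The clearest difference was between the combination and T0070907 alone, that is, the effect of adding RGZ in the presence of the antagonist. Without the block 0 of 82 members were called (0.037% of all tested genes), while 45 had an unadjusted p under 0.05, all higher (7.99% of all tested genes), and 44 and 45 did so in DESeq2 and limma-voom. With the block 19 of 82 members were called, all higher under the combination, against 8.76% of all tested genes and 4.55% called higher. The 19 rises lay between 0.23 and 0.51 on the log2 scale, with adjusted p between 0.0125 and 0.0431, and each was higher in all 3 experiments. Of all 82 members 64 were higher in all 3 experiments (23.5% of all tested genes), and in 39 every combination library was above every T0070907 library (8.96%). The median log2 fold change was 0.22, against -0.01 for all tested genes. Within experiments it was 0.44, 0.11 and 0.13. The count of 19 rested on single libraries. With the block it was 63 without the combination library of experiment 2 (24.5% of all tested genes), 24 without the T0070907 library of experiment 3 (7.06%) and 6 without the combination library of experiment 1 (4.67%). It was 0 without the combination library of experiment 3, or without the T0070907 library of experiment 1 or of experiment 2.

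Complex I had 5 of 37 tested members called with the block. These were the accessory subunits *NDUFB2*, *NDUFB7*, *NDUFA13*, *NDUFB5* and *NDUFS5*. *NDUFB2* had 67.9, 84.1 and 87.6 CPM under T0070907 in experiments 1 to 3 and 117, 95.1 and 105 under the combination, and the groups did not overlap. Its log2 change came to 0.41 (SE 0.10, adjusted p = 0.0211 with the block and 0.261 without, edgeR). *NDUFB7* had 97.7, 114 and 119.5 CPM under T0070907 and 169, 129 and 139 under the combination, a log2 change of 0.40 (SE 0.11, adjusted p = 0.0359 with the block and 0.261 without, edgeR). *NDUFA13*, also known as GRIM19 for a role in interferon-induced cell death, had 195, 227 and 247 CPM under T0070907 and 317, 249 and 300.0 under the combination. Each combination library was above the T0070907 libraries, and the log2 change came to 0.38 (SE 0.10, adjusted p = 0.0314 with the block and 0.27 without, edgeR). With a correction for transcript length added to the block, described with the length results, *NDUFA13* stayed called at 0.21 (adjusted p = 0.0442, edgeR). *NDUFB2* at 0.16, *NDUFB7* at 0.15 and *NDUFB5* at 0.17 did not pass (adjusted p = 0.0868, 0.14 and 0.0944, edgeR). With the block alone, 6 fits each left out a library of the groups compared. *NDUFB2* was called in 3 of them, and *NDUFB7* and *NDUFA13* in 2 each. None of the 7 tested core subunits, which carry the redox centres, was called. Their median log2 fold change with the block was 0.15, against 0.24 for the 30 accessory subunits. At 4.55% of all tested genes called higher, a count of 0 among 7 is near the background, and the difference between core and accessory subunits was not tested. *NDUFS1*, the largest iron-sulfur subunit, had 96.7, 99.9 and 96.2 CPM under T0070907 and 86.0, 96.3 and 89.3 under the combination. It was the only member lower in all 3 experiments (24.8% of all tested genes were), with a log2 change of -0.11 (SE 0.06, adjusted p = 0.254 with the block, edgeR), or 0.09 with the length correction. *NDUFV1*, the subunit that binds NADH, had a log2 change of 0.22 (SE 0.09) that did not pass.

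Complex II had 0 of 4 members called with the block, beside 4.55% of all tested genes called higher. With a correction for transcript length added, 1 was called (*SDHC*, at 0.32), beside 4.37%. *SDHA*, the flavoprotein that binds succinate, had 139.8, 151 and 144 CPM under T0070907 and 143, 150.2 and 138 under the combination. These values interleave, and the log2 change came to -0.01 (SE 0.06, adjusted p = 0.934 with the block, edgeR). The log2 fold changes of *SDHB*, *SDHD* and the other membrane anchor *SDHC* were 0.13, 0.13 and 0.11 with the block, with adjusted p of 0.218, 0.201 and 0.252 (edgeR). Only *SDHB* was higher in all 3 experiments, and with the length correction its log2 change came to -0.02. With 4 genes of different length this set is too small to set its median of 0.12 apart from those of the other complexes, and the difference between complexes was not tested.

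Complex III had 5 of 10 members called with the block, beside 4.55% of all tested genes called higher. *UQCRQ*, a small subunit near the quinone-binding cytochrome b, had 170.4, 203 and 213 CPM under T0070907 and 257, 227 and 257 under the combination, and the groups did not overlap. The log2 change came to 0.34 (SE 0.08, adjusted p = 0.015 with the block and 0.261 without, edgeR). With the block, this call held in 3 of 6 fits that left out a library of the groups compared. *UQCRB*, *UQCR10* and *UQCR11*, further small subunits, and *UQCRFS1*, the Rieske iron-sulfur protein, had log2 fold changes of 0.29, 0.32, 0.33 and 0.23. *CYC1*, the cytochrome c1 subunit, and *UQCRC1*, a core subunit, had values of 0.16 and 0.17 and were not called (adjusted p = 0.164 and 0.126 with the block, edgeR). With the length correction *UQCRB* and *UQCRFS1* stayed called at 0.40 and 0.26, while *UQCRQ* at 0.10, *UQCR10* at 0.15 and *UQCR11* at 0.20 did not pass (adjusted p = 0.167, 0.161 and 0.0811, edgeR). The medians with the block were 0.16 for the 4 catalytic and core genes and 0.31 for the 6 small subunits.

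Beside 4.55% of all tested genes called higher, complex IV had 3 of 13 tested members called with the block. They were *COX4I1*, *COX6C* and *COX7C*, with log2 fold changes of 0.31, 0.31 and 0.26. *COX4I1* had 354, 366 and 408 CPM under T0070907 and 507, 422 and 462 under the combination. The lowest combination library was above the highest T0070907 library, and adjusted p was 0.0255 with the block and 0.261 without (edgeR). *COX5A* and *COX5B*, subunits of the matrix side, had log2 fold changes of 0.19 and 0.07 and did not pass (adjusted p = 0.151 and 0.697 with the block, edgeR). With the length correction 0 of the 3 stayed called, at 0.09 for *COX4I1*, 0.15 for *COX6C* and 0.04 for *COX7C* (adjusted p = 0.17, 0.0617 and 0.636, edgeR). In *COX5B* the combination library of experiment 2, at 99.6 CPM, was the lowest of both groups.

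Beside 4.55% of all tested genes called higher, complex V had 6 of 18 tested members called with the block. They were the ε subunit *ATP5F1E*, the c-ring genes *ATP5MC1* and *ATP5MC3*, the peripheral stalk genes *ATP5PD* and *ATP5PF* and the membrane subunit *ATP5ME*. *ATP5F1E* had 8.78, 11.4 and 11.6 CPM under T0070907 and 15.9, 13.2 and 16.2 under the combination. The groups did not overlap, and the log2 change of 0.51 (SE 0.14, adjusted p = 0.037 with the block and 0.278 without, edgeR) was the largest of the 19, in a gene with a near-identical copy. With the block, its call held in 1 of 6 fits that left out a library of the groups compared. *ATP5PD*, a stalk subunit, had the lowest adjusted p of the members, 0.0125 with the block (edgeR). It had 101, 115 and 119 CPM under T0070907 and 143, 136 and 138 under the combination, a log2 change of 0.32 (SE 0.07). With the length correction *ATP5F1E* stayed called at 0.55 (adjusted p = 0.0205, edgeR), and *ATP5PD* had 0.09 (adjusted p = 0.292, edgeR). Differences among the genes of the catalytic head were not tested. *ATP5F1A*, the α subunit, had 568, 577 and 599 CPM under T0070907 and 606, 602 and 608 under the combination, with no overlap, and the values of *ATP5F1B* overlapped at 1544, 1583 and 1509 against 1672, 1551 and 1565 CPM. Their log2 fold changes were 0.06 and 0.05 (SE 0.05 each, adjusted p = 0.486 and 0.572 with the block, edgeR). *ATP5F1C* and *ATP5F1D*, the γ and δ subunits, were higher in all 3 experiments with no overlap, at 0.14 and 0.33, and did not pass (adjusted p = 0.102 and 0.0581 with the block, edgeR).

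**Figure D4:**
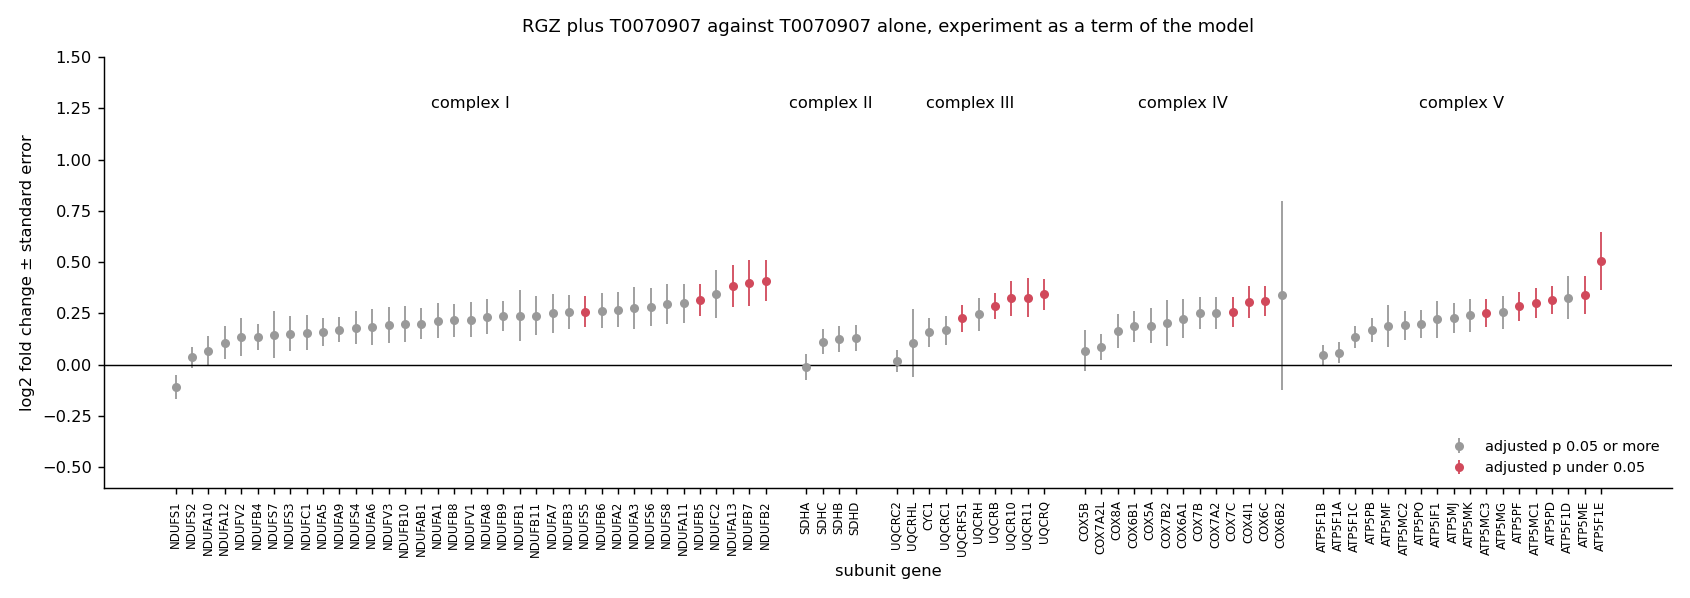
Log2 fold change of the 82 tested subunit genes (combination over T0070907 alone, replicate block), ordered by size within each complex. Bars are standard errors, and the 19 red points, none of them in complex II, have an adjusted p under 0.05.

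Transcript length moved with these differences. In the same comparison with the block, the 822 other genes under 1000 nt had a median log2 fold change of 0.20, and 154 of them were called higher and 1 lower. Genes that are no members had a median of 0.22 between 500 and 750 nt, 0.03 between 2000 and 3000 nt and -0.22 above 10000 nt. Below 500 nt the median of such genes was lower again, at 0.12 (132 genes). The 47 members under 1000 nt had a median of 0.24 and the 35 longer members 0.17. Single members departed from this. *COX5B* (712 nt) had 0.07, while *UQCRB* (5575 nt) had 0.29 and *ATP5F1E* (3665 nt) had 0.51. After a correction for length within each library, together with the block, the members' median was 0.05 against 0.00 for all tested genes. The count of called members fell from 19 to 7, all higher, against 4.37% of all tested genes called higher, and 4 of the 7 were among the 19. Of the 82 directions 26 turned, 0 of them in called members. The 4 that stayed called were *NDUFA13* (0.21), *ATP5F1E*, *UQCRB* and *UQCRFS1*, joined by *NDUFA9*, *ATP5PB* and *SDHC*. For 6 of the 7 the chosen transcript is over 3000 nt, and the correction depends on that choice. By limma-voom with the block and no length correction, also chosen after the data were seen, 17 members were called (7.46% of all tested genes), and 1 against RGZ (10.8%). With the longest annotated transcript as the length, an alternative chosen after the data were seen, 14 members were called for the combination against T0070907 (7.49% of all tested genes), 5 against RGZ (14.4%) and 2 for RGZ against vehicle (12.1%). Against RGZ alone the corrected log2 fold changes of *NDUFA11* and *NDUFS8* were both 0.20 and both stayed called, and *ATP5MC3* joined them at -0.12, 3 members in all against 14.7% of all tested genes. Under the same correction 1 member was called for RGZ against vehicle (*ATP5MC3*, 0.12, beside 12.4% of all tested genes) and 1 for the combination against vehicle (*NDUFA9*, 0.35, beside 0.241%). The length-corrected medians against vehicle were 0.04 for RGZ, 0.00 for T0070907 and 0.06 for the combination. A correction for GC content with the block gave 39 called members for the combination against T0070907 (14.1% of all tested genes), 5 against RGZ (13.3%) and 1 for RGZ against vehicle (11.4%). The GC-corrected members' median for the combination against vehicle was 0.22.

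**Figure D5:**
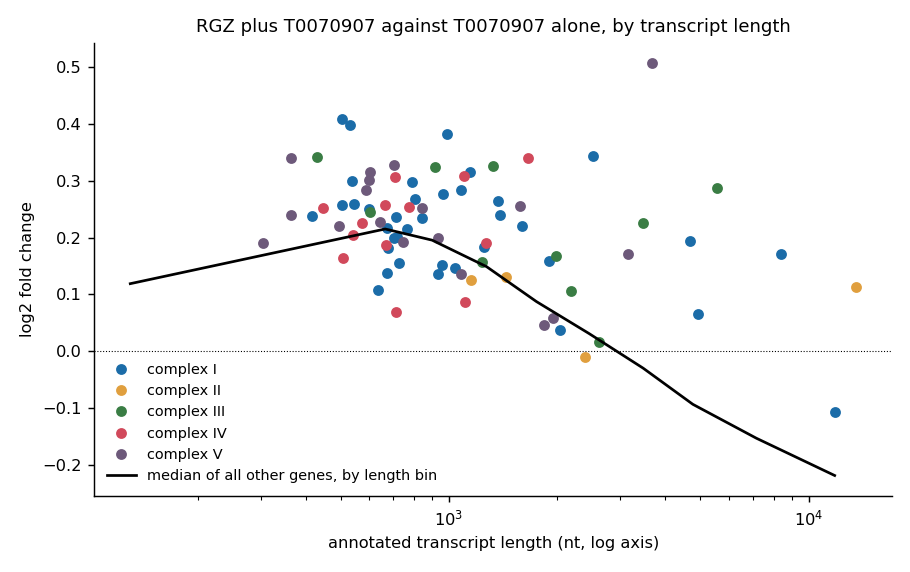
Log2 fold change of the subunit genes (combination over T0070907 alone, replicate block) plotted on annotated transcript length on a log axis. The line joins the medians of all other tested genes in bins of length. It stands at 0.12 under 500 nt and falls from 0.22 at 500 to 750 nt to -0.22 above 10000 nt. Many short members lie along it.

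The interaction asks whether the effect of RGZ differs with and without the antagonist. It was called for 0 of 82 members without the block (0% of all tested genes) and for 0 with it (0.281%), or 1 without the combination library of experiment 2 (1.09%), with 3 members higher (1.31%) at an unadjusted p under 0.05 without the block in edgeR, 2 in DESeq2 and 3 in limma-voom. The median was 0.12 on the log2 scale. *NDUFB5*, an accessory subunit, had the smallest p-value. Its level was 60.9, 73.9 and 64.4 CPM under vehicle and 58.8, 69.4 and 62.3 under RGZ. With T0070907 it was 54.9, 58.8 and 64.4 CPM, and under the combination 77.2, 74.6 and 70.2. RGZ was thus slightly lower than vehicle in each experiment while the combination was above T0070907, and the interaction of 0.38 (SE 0.11) had an adjusted p of 0.218 with the block (edgeR). Calls in the comparison against T0070907 and none in that against vehicle therefore do not show that the effect of RGZ on these genes differed.

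With the conditions held in the model, 5 of 82 members (6.1%) differed between experiments, against 30.5% of all tested genes. The difference between these shares was not tested. One of the 5, *COX6B2*, had a log2 difference of 2.04 between experiments 2 and 1. Its counts for vehicle, RGZ, T0070907 and the combination were 3, 3, 7 and 4 in experiment 1 and 16, 30, 14 and 15 in experiment 2. It passed the filter on low counts only through the libraries of experiment 2. Its test is thus not independent of the filter, and no conclusion is drawn from it. With at least 10 counts required in every library it was not tested, and 4 of 81 members were called (30% of all tested genes). *SDHA*, *NDUFA3*, *UQCRC2* and *ATP5IF1* differed by 0.19, 0.33, 0.13 and 0.26 between the same experiments.

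The other genes of the pathway were taken from lists. Assembly factors build the complexes without being part of them. Of 62 tested, 0 were called in any comparison without the block, beside 0% to 1.24% of all tested genes. With the block 1 was called higher under RGZ (*TMEM186*, complex I), beside 9.3% of all tested genes. The combination against RGZ gave *UQCC3* (complex III) higher and *COA7* (complex IV) lower, beside 11.4% of all tested genes. Against T0070907 it gave 12 higher and 1 lower, the last again *COA7*, beside 8.76%. *COA7* had log2 fold changes of -0.35 against RGZ and -0.32 against T0070907 (adjusted p = 0.0235 and 0.0455 with the block, edgeR). The median of the 62 for the combination against T0070907 was 0.17 with the block, beside 0.22 for the subunits.

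The electron-transfer flavoproteins, which feed electrons from fatty acid oxidation into coenzyme Q, gave calls in several comparisons. *ETFA* had 241 ± 18 CPM under vehicle, 384 ± 15 under RGZ, 178 ± 6.8 under T0070907 and 246 ± 16 under the combination (SD, n = 3). It rose by 0.67 under RGZ (SE 0.07, adjusted p = 0.000726, edgeR without the block) and was lower under the combination than under RGZ by -0.64 (adjusted p = 0.00174). Both calls held in each of 6 fits that left out a library of the groups compared. Its partner *ETFB* and the membrane dehydrogenase *ETFDH* had log2 fold changes of 0.34 and 0.42 under RGZ, called with the block only (adjusted p = 0.0195 and 0.0146, edgeR), as was *SQOR*, the sulfide oxidase that also reduces coenzyme Q, at 1.03. With *ETFA* these are 4 of 10 tested carriers and donors called higher under RGZ with the block, against 9.3% of all tested genes called in either direction. *CYCS*, cytochrome c itself, had 0.12 under RGZ and was not called (adjusted p = 0.242 with the block). For the combination against T0070907, *CYCS* (0.20, adjusted p = 0.0459), *ETFA* (0.47, adjusted p = 0.000139) and *ETFB* (0.44, adjusted p = 0.0076) were called higher with the block, 3 of 10 beside 8.76% of all tested genes. With the block *ETFA* was also called lower under T0070907 than under vehicle (-0.44, adjusted p = 0.000725), and *ETFDH* lower for the combination than for RGZ (-0.33, adjusted p = 0.047).

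Of 14 tested regulators of mitochondrial gene transcription, *ESRRA*, the estrogen-related receptor α, and *MYC* were called higher under RGZ without the block and lower under the combination than under RGZ. *MYC* had 19.3 ± 1.6, 33.9 ± 3.8, 17.8 ± 0.54 and 21.2 ± 2.1 CPM under vehicle, RGZ, T0070907 and the combination (SD, n = 3). *ESRRA* had 67.1 ± 2.1, 88.9 ± 7.1, 63.6 ± 3.8 and 68.8 ± 3.1. The log2 fold changes under RGZ were 0.81 (adjusted p = 0.00461) and 0.40 (adjusted p = 0.0235, edgeR without the block). The call of *ESRRA* under RGZ held without the block when the RGZ library of experiment 1 was left out, and was lost when any other RGZ or vehicle library was, with adjusted p up to 0.101. With the block it held in all 6 such fits. The call of *MYC* under RGZ held in all 6, and its call against RGZ was lost, in the fit with no block, without the RGZ library of experiment 1 or 2 or the combination library of experiment 1 (adjusted p up to 0.0578). Without the block, that of *ESRRA* against RGZ held in 1 of 6 such fits, which was without the RGZ library of experiment 1. With the block the calls of both genes against RGZ held in 6 of 6. When only the groups compared were fitted, both calls of *ESRRA* (adjusted p = 0.0890 under RGZ and 0.131 against RGZ) and the call of *MYC* against RGZ (0.0797) were lost. *TFB2M*, a mitochondrial transcription factor, was called higher under RGZ with the block only, at 0.21 (adjusted p = 0.0228), and for the combination against T0070907 at 0.19 (adjusted p = 0.0431). *PPARGC1B* and *PPRC1*, coactivators of the PGC-1 family, were lower under the combination than under RGZ by -0.54 and -0.22 with the block (adjusted p = 0.00776 and 0.0149, edgeR), and *PPARGC1A* had 3 to 17 counts per library. Without the block the regulators called under RGZ were 2 of 14, beside 1.24% of all tested genes, and with it 3 of 14, beside 9.3%.

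Promoters were read from RefSeq's table for the GRCh38.p14 assembly, in which 68 of the 82 tested members were matched, each as 250 bases before to 50 after the first listed transcription start. The 4 motifs were searched on both strands. CCGGAAG, the site of ETS factors such as GABPA (also called NRF2), was found in 20 of 68 members (29.4%), against 10.7% of all 27305 promoters and 19.2% of those of tested genes. AANATGGCG, a YY1 site, was found in 16 (23.5%), against 3.37% of all and 6.86% of tested genes' promoters, and in 14 of the 16 the match lay after the start. The NRF1 site, GCGCA directly followed by its reverse complement TGCGC, was found in 4 (5.88%), against 1.36% and 2.31%. The direct repeat known as a PPAR response element, AGGTCA and AGGTCA with any base between, was found in 0 of 68 and in 0.022% of all promoters. These are matches of letters and not measured binding. The upstream parts of 4 members called with the block, and of *SDHD* as a member of complex II that was not called and that holds an NRF1 and an ETS match, are printed here with the matches in capitals.
*NDUFB7*, chr19:14572067-14572316 (minus strand): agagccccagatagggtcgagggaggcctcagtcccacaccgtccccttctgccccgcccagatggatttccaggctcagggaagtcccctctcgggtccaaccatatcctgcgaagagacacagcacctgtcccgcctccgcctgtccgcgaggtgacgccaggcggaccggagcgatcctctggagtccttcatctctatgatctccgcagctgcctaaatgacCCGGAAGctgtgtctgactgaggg
*NDUFA13*, chr19:19515975-19516224 (plus strand): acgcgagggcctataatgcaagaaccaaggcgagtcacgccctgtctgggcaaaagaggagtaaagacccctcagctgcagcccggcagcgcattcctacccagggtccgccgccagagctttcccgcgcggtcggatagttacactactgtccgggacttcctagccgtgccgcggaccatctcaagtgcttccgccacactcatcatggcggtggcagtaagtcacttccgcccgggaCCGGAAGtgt
*UQCRQ*, chr5:132866392-132866641 (plus strand): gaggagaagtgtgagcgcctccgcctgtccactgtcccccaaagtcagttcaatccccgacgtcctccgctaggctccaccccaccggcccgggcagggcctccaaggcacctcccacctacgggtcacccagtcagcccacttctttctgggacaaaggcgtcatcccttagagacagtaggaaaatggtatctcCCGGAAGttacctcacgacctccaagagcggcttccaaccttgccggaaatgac
*NDUFS8*, chr11:68030431-68030680 (plus strand): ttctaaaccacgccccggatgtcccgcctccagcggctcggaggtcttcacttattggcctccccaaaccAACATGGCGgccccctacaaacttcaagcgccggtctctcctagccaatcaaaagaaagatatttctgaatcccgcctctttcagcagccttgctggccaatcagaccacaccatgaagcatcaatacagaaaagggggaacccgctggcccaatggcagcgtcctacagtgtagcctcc
*SDHD*, chr11:112086623-112086872 (plus strand): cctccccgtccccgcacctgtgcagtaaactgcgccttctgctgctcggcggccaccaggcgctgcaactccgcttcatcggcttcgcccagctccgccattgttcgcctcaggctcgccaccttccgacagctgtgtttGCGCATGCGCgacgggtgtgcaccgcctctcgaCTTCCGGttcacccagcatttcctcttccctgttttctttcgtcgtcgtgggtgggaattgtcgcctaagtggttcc
The ETS match starts 24 bases before the start in *NDUFB7*, 10 in *NDUFA13*, 54 in *UQCRQ* and 77 in *SDHD*, where it lies on the minus strand. The YY1 match of *NDUFS8* starts 180 bases before the start, and the NRF1 match of *SDHD* 110 bases before it.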

How the data were processed

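RNA of A375 cells was sequenced in 12 libraries, 3 for each of 4 conditions. The authors deposited raw counts per gene, without normalization. Per the labels, libraries were TruSeq RNA, sequenced on a HiSeq 2000, and the genome build was hg19. The aligner, the counting tool, the annotation and the strand setting are not given in the sources used here, so overlapping, antisense and near-identical genes may share counts. The total count per library was between 8319455 and 11375227, and floors cover counting error only. The table held 0 columns of other samples.

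The test was edgeR's quasi-likelihood test (edgeR 4.0.16 under R 4.3.3, TMM scaling, filterByExpr), with the 4 conditions fitted over all 12 libraries. Of the 23705 genes, 13522 were tested, and p-values were adjusted over all of them by the Benjamini-Hochberg method with a threshold of 0.05. Standard errors were recovered from each log2 change and its F statistic. Differences within experiments are of log2(CPM + 0.5). Rows were given symbols by NCBI gene number (23538 of 23705). Transcript length was that of the shortest principal transcript with a RefSeq mRNA in GENCODE release 29, and GC content came from the same annotation. The test was tried on simulated counts.

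The experiment number in the labels marks a shared experiment, and the deviations of its libraries from their condition means were correlated. The mean correlation was 0.554 over 18 pairs (0.0793 to 0.758) across all tested genes and 0.464 across the members (-0.427 to 0.854). The common dispersion was 0.0193 without the replicate block and 0.00333 with it. Separate experiments are biological repeats of 1 cell line.

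Alternatives were DESeq2 1.42.0 and its size factors within edgeR, limma-voom (limma 3.58.1), other filters, only the groups compared, the replicate block alone and with length or GC correction, and leaving out each library. Limma-voom with the block and the use of the longest transcript were chosen after seeing the data. The members, the lists and the tests were chosen with earlier results of these data known. Named genes were members called without the block, the 5 largest changes per comparison and direction called with the block and alike in all 3 experiments, the highest and lowest member per complex, isoforms and regulators, the 4 genes of complex II and the main catalytic and core subunits, and called genes of the lists. Other members were named after their values were seen. The lists of markers of other cell types stand in the closing section.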

Additional observations from a re-analysis of the deposited data

How the results depend on the processing

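Without the replicate block, the count of called subunit genes was 0 in all 6 comparisons under DESeq2, DESeq2's size factors, limma-voom, both filters, only the groups compared and each fit that left out a library. With the replicate block the counts were 2 for the combination against RGZ and 19 for the combination against T0070907, and 0 in the other 4 comparisons, and limma-voom with the block gave 1 and 17, beside 10.8% and 7.46% of all tested genes. The block with the length correction gave 1 for RGZ against vehicle, 1 for the combination against vehicle, 3 against RGZ and 7 against T0070907. By the longest transcript these were 2 for RGZ against vehicle, 5 against RGZ and 14 against T0070907. The block with the GC correction gave 1 for RGZ against vehicle, 5 for the combination against RGZ and 39 against T0070907. Leaving out a library with the block gave from 0 to 3 for RGZ against vehicle, from 0 to 60 for the combination against vehicle (35 without vehicle replicate 2), from 0 to 37 against RGZ, from 0 to 63 against T0070907 (24 without T0070907 replicate 3) and from 0 to 1 for the interaction. The 1 call of the interaction was without the combination library of experiment 2. The differences between experiments gave 5 of 82 members, and 4 of 81 with at least 10 counts in every library. Of 149 alternative values of the medians, 140 moved by less than their spread over experiments. The 9 others all belong to RGZ against vehicle, whose median of 0.09 lay between 0.03 and 0.17 over all fits that left out a library and at 0.04 with either length correction. That spread is wide, and with the block the fits that left out a library gave medians of 0.10 to 0.31 for the combination against vehicle, 0.01 to 0.21 against RGZ, 0.11 to 0.33 against T0070907 and 0.03 to 0.21 for the interaction. The length correction took the medians of the last 3 to 0.02, 0.05 and 0.02. For 13 genes, each in the comparisons it was followed in (*NDUFA11*, *NDUFS8*, *NDUFB2*, *NDUFB7*, *NDUFA13*, *UQCRQ*, *ATP5F1E*, *ETFA*, *ESRRA*, *MYC*, *ANGPTL4*, *CPT1A* and *PDK4*), no direction reversed in 435 values. These subunit genes were chosen as called and alike in all 3 experiments, and the others as called or as treatment checks. Their direction was thus largely fixed by the choice. With the block, the calls of these subunit genes held in 1 to 3 of 6 fits that left out a library of the groups compared. Over all 82 members, the block with the length correction turned the direction of 20 for RGZ against vehicle, 3 for T0070907 and 22 for the combination against vehicle, 27 for the combination against RGZ, 26 against T0070907 and 25 for the interaction, and 0 of these were called after it. For the combination against T0070907 *COX5B* had -0.14, *SDHB* -0.02, *ATP5F1A* -0.00, *ATP5F1B* -0.03 and *ATP5F1C* -0.02. The causes of the changes with the length and GC corrections were not tested. Depth limits *COX6B2*, *COX7A1* and *ATP5MGL*, which had few counts. By the longest transcript the median levels per kb changed by more than their spread for complexes I, II, IV and V.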

Other observations

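Markers of other cell types had 0 calls without the replicate block. The summed level of 4 muscle markers, of which 1 was tested and *MYH7* was at 0, was between 0.609 and 9.13 CPM over the 12 libraries. The 3 endothelial markers summed to between 0.706 and 2.50 CPM, the 4 fibroblast markers to between 9.24 and 34.8 CPM and the 4 keratinocyte markers to between 85.9 and 119 CPM. Of 3 leukocyte markers, *PTPRC* and *CD3E* had 0 to 2 counts and were not tested. *CD68*, which tumour cells also express, was called with the block under RGZ (log2 change 0.42, adjusted p = 0.000827). With the block *COL1A1*, a collagen gene, and *KRT14*, a keratin, were called lower under RGZ than under vehicle (-0.76 and -0.94), as were the melanocyte genes *MITF* (-0.34) and *S100B* (-1.02). With the block *S100B* was called higher under T0070907 than under vehicle (0.59). For RGZ plus T0070907 against RGZ, *KRT14* (1.10), *MITF* (0.27), *S100B* (1.34) and *S100A1* (0.44) were called higher and *CD68* (-0.39) lower, and against T0070907 *COL1A1* was called lower (-0.55). The 9 melanocyte markers together spanned 291 to 532 CPM for vehicle, 239 to 458 for RGZ, 339 to 574 for T0070907 and 300 to 527 for RGZ plus T0070907. Their part in the results was not tested.

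Among the subunit genes, the first principal component over the 12 libraries held 61.1% of the variance. The condition explained 42.2% of it and the experiment 25.5%. The second held 25.6%, of which the experiment explained 56.2% and the condition 13.8%.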
